A study of Homo sapiens with 24 samples.

Results

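The switch that sets the activity of the transcription factor NRF2 was described here through the RNA of 9 genes, KEAP1, CUL3, RBX1, NFE2L2, NFE2L1, BACH1, MAFG, MAFK and MAFF, in HepG2 cells. The genes were chosen by name, and their rows were found by NCBI gene ID. All 9 were present, each in 1 row, out of 11927 features with a gene ID, and all 9 passed the filter on low counts. HepG2 is an established human liver cancer line. Its populations had been transduced with a lentiviral CRISPR-Cas9 vector and selected as a whole, with the control guide sgCtrl (labelled sgAAVS168 in the treatment field, after the AAVS1 safe-harbour site) or with 1 of the 2 guides against KEAP1, sgKeap1-1 and sgKeap1-2. Each population was transfected with a non-targeting siRNA (siNC) or with siRNA pools against the transcription factors TFEB and TFE3 (sitfeb/sitfe3), and RNA was taken at 72 h. The 6 groups held 4 libraries each. All groups therefore carried Cas9 and a guide, and all were transfected.

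KEAP1 is the substrate adaptor of a ubiquitin ligase built on the scaffold CUL3 and the RING subunit RBX1. In unstressed cells this ligase marks NRF2, the product of NFE2L2, for the proteasome, so NRF2 is controlled mainly as a protein. When KEAP1 is modified or lost, NRF2 accumulates, pairs with a small MAF protein (MAFG, MAFK or MAFF) and binds antioxidant response elements, where BACH1 with the same partners acts as a repressor. NRF1, the product of NFE2L1, is a related factor that is anchored in the endoplasmic reticulum and released by its own processing steps.

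The counts come from QuantSeq, in which reads fall at the 3′ end of polyadenylated RNA. They measure RNA level, not the edit made by a guide, the protein or its activity. In bulk RNA, a change in every cell and a larger change in a part of the cells cannot be told apart. Total reads per library ranged from 3527000 to 4600951. Levels are given in CPM, read counts scaled to the size of the library and not divided by transcript length. They were tested between groups and not between genes, and sums and ratios of genes below are descriptions only. Nothing in the labels says that the 4 libraries of a group were separate cultures, so the p-values measure the spread between these libraries. The sample descriptions begin with a code that goes with the replicate number and is the same in all 6 groups, but what it stands for is not stated. On the second principal component, which held 16.6% of the variance, 2 libraries stood apart. These were replicate 1 of sgKeap1-1 under siNC and replicate 1 of sgKeap1-2 under sitfeb/sitfe3, at 42 and 35.2 where the others lay between -10.1 and 4.71. Where leaving them out changes a call, or moves a value they weigh on, the value without them is given.

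Of the 10 hepatocyte markers examined, all were present, with ALB between 7800 and 12200 CPM and AFP between 4330 and 9100 CPM in the 8 sgCtrl libraries. With the guides, 6 of the 10 were lower with sgKeap1-1 and 7 with sgKeap1-2, averaged over both siRNAs, where 10.1% and 14.6% of all genes were lower. None of the endothelial markers was present (0 of 4), and of the fibroblast and immune markers 2 of 6 and 2 of 4 were. Of these, PDGFRB (-1.11 and -0.81 on the log2 scale) and LYZ (-0.42 and -0.51) were lower with both guides, and with knockdown averaged over guides COL1A1 was higher by 1.83 and PDGFRB lower (-0.94). The part of the marker change in the results below was not tested. Averaged over guides, sitfeb/sitfe3 gave log2 differences of -1.92 for TFEB (SE 0.21, adjusted p 4.91e-06) and -1.67 for TFE3 (SE 0.15, adjusted p 6.33e-08), and every knockdown library was below every siNC library for both.

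The short sequences that NRF2 and the TFEB family read are shown here, so that the genes whose RNA rose can be compared with well-known NRF2 targets. The 250 bases before the RefSeq gene start (GRCh38.p14, written 5′ to 3′ on the strand of the gene) were searched on both strands for the core of the antioxidant response element, TGACNNNGC, and for CACGTG, the E-box at the centre of the CLEAR element that TFEB and TFE3 bind. The 2 motifs overlap in 1 of the promoters examined, that of RBX1. Of 35116 promoters, 10.9% held the first motif and 6.34% the second. Promoters of 8 of the 9 genes were matched, and MAFK was not. Capitals below mark either motif.
MAFG, chr17:81927736-81927985, minus strand: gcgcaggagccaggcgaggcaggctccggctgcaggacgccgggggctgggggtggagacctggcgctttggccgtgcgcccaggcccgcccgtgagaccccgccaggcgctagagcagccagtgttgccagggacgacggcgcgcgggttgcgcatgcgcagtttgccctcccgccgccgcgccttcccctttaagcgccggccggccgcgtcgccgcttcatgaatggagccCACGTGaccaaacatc
BACH1, chr21:29304954-29305203, plus strand: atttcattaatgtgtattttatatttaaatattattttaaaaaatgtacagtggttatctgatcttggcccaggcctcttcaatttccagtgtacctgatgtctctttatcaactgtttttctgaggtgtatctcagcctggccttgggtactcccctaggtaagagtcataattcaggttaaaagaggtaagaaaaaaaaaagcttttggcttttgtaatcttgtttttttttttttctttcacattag
GCLM, chr1:93909431-93909680, minus strand: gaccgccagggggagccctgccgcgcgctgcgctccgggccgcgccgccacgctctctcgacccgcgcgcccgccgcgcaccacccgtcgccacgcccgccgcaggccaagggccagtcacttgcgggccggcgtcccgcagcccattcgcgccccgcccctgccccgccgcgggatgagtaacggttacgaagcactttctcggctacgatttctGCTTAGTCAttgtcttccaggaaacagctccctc
TXNRD1, chr12:104215529-104215778, plus strand: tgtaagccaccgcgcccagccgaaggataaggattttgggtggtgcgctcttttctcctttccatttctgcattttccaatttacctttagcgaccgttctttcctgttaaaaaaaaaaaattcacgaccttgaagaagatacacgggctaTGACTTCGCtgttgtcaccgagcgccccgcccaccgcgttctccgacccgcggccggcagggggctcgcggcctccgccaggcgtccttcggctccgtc

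BACH1 and MAFG are shown because their RNA rose with a KEAP1 guide, and GCLM and TXNRD1 because they are enzymes of the glutathione and thioredoxin systems that NRF2 drives. GCLM held the element GCTTAGTCA on the reverse strand, from 34 to 26 bases before the start, and TXNRD1 held TGACTTCGC from 99 to 91 bases before it. The MAFG window held no copy of this core and 1 CACGTG, from 16 to 11 bases before the start. The BACH1 window held neither. It is rich in A and T and ends in a stretch mostly of T, then AG, as introns do before an exon. It may therefore be intron and no promoter, and whether this BACH1 start is the one used in HepG2 was not tested. The lack of a motif in this window says nothing about other BACH1 promoters. The windows of NQO1 and SQSTM1, a pair of NRF2 targets that were searched but are not printed, held neither motif. Among the other members, RBX1 and MAFF each held both motifs, and KEAP1, CUL3, NFE2L2 and NFE2L1 held neither. The table has 1 start per gene, so other promoters of a gene were not searched, and a match is a run of letters and no measure of binding.

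KEAP1, the targeted gene, came first (GRCh37 chromosome 19, 10596801 to 10614234, minus strand). Under siNC it was measured at 85.3, 83, 77.5 and 93.6 CPM in the sgCtrl libraries. With sgKeap1-1 the 4 libraries had 48.1, 59.2, 48.8 and 59.1 CPM. With sgKeap1-2 they had 79.3, 81, 72.1 and 77.1 CPM. Every sgKeap1-1 library was thus below every sgCtrl library, whereas the sgKeap1-2 libraries overlapped with sgCtrl. Under sitfeb/sitfe3 the sgCtrl libraries lay within 84.1 to 86 CPM, the sgKeap1-1 libraries within 49 to 63.5 CPM and the sgKeap1-2 libraries within 69.7 to 90.6 CPM. Averaged over both siRNAs, KEAP1 fell to 0.643 of the control with sgKeap1-1 (log2 fold change -0.64, SE 0.08, adjusted p 4.13e-07). With sgKeap1-2 the log2 fold change was -0.13 (95% confidence interval -0.28 to 0.02, adjusted p 0.184), which did not pass.

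The direct comparison of the guides showed the same order. KEAP1 was 1.42-fold higher with sgKeap1-2 than with sgKeap1-1 (log2 fold change 0.50, SE 0.08, adjusted p 0.00145), and all 8 sgKeap1-2 libraries were above all 8 sgKeap1-1 libraries. KEAP1 was 1 of 13 genes out of 11152 that passed in this comparison (0.117%), and no other member did. BACH1, at 0.32 (SE 0.14, adjusted p 0.518), had the next lowest unadjusted p among the members, 0.0309. The order of the KEAP1 levels over the 6 groups was therefore both sgKeap1-1 groups at the bottom, both sgKeap1-2 groups above them and both sgCtrl groups at the top, and the sgKeap1-2 and sgCtrl groups did not differ beyond the spread.

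**Figure D1:**
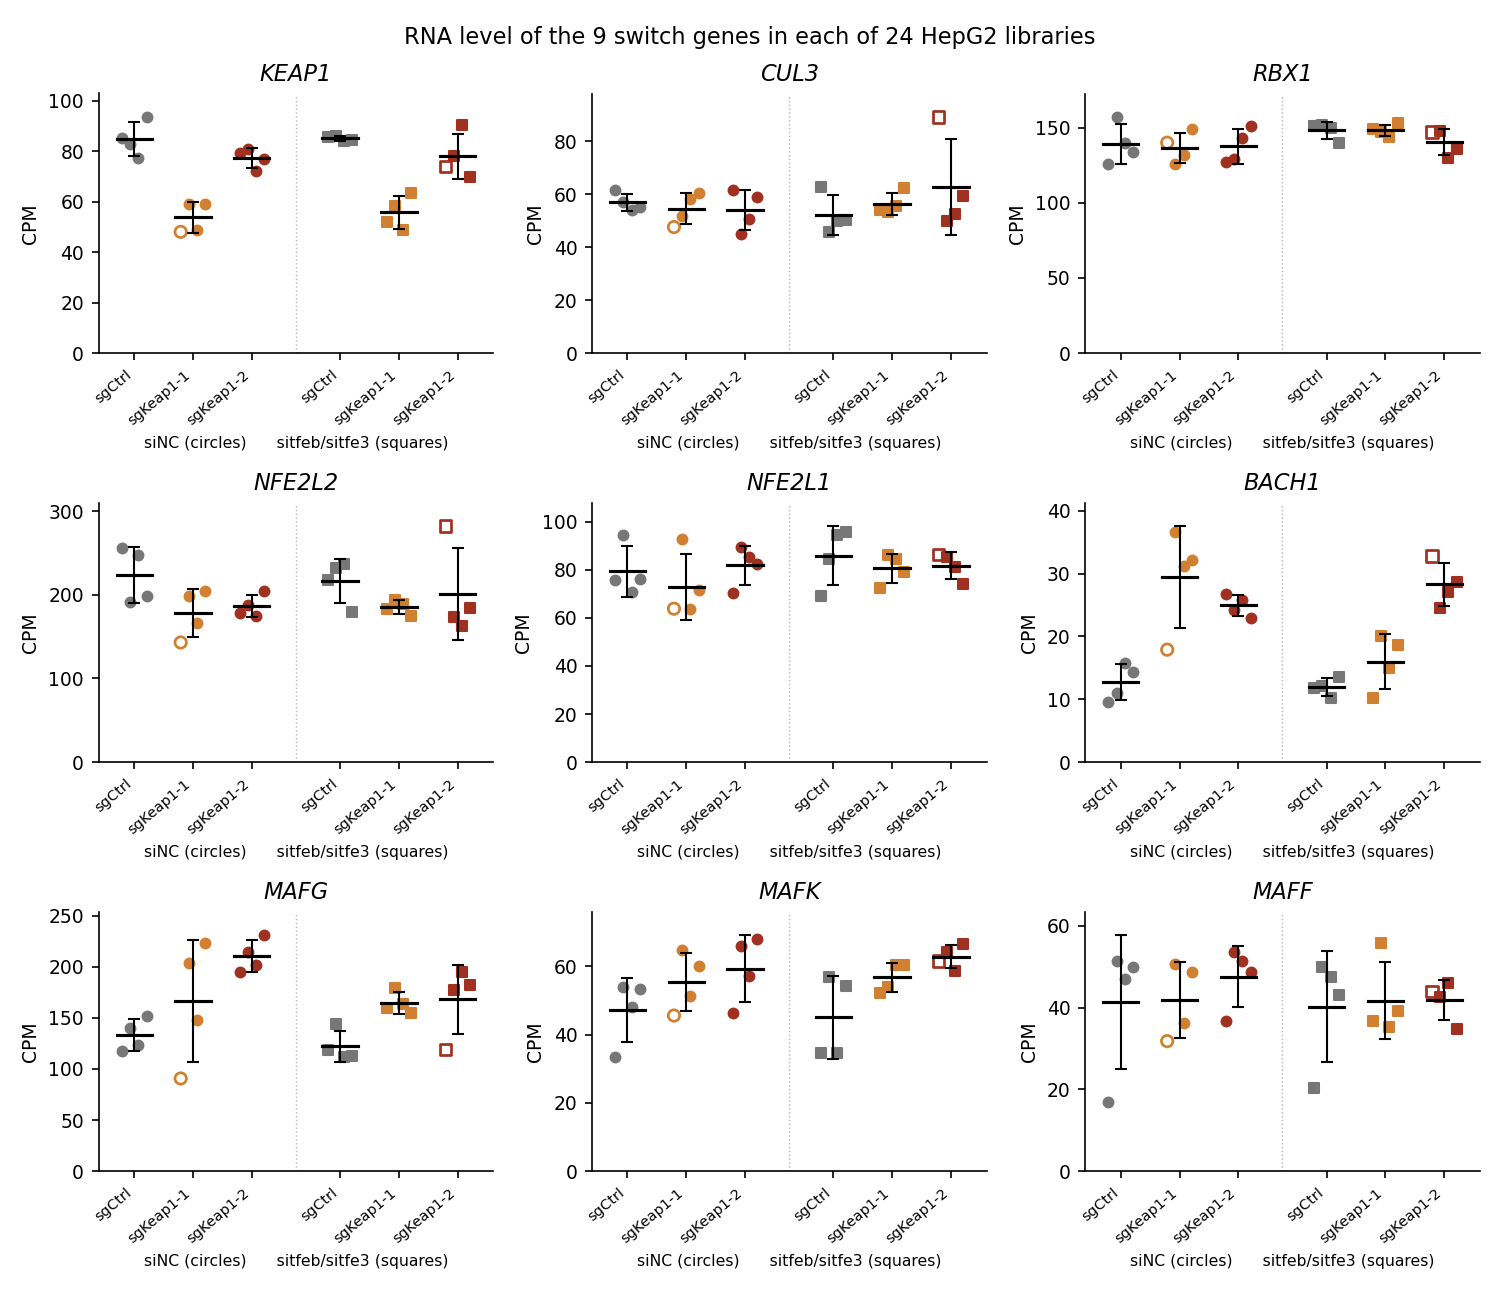
Level of each of the 9 genes in CPM (y axis, from 0) in every library, by guide and siRNA (x axis). Circles are siNC and squares sitfeb/sitfe3, open symbols are the 2 libraries that stand apart, and bars are the mean and SD of 4 libraries. KEAP1 is lowest with sgKeap1-1, and BACH1 is highest in both sgKeap1-2 groups and in sgKeap1-1 under siNC.

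The other subunits of the ligase stayed within the spread. CUL3 (GRCh37 chromosome 2, 225334867 to 225450114, minus strand) had group means from 52.2 to 62.7 CPM, and RBX1 (chromosome 22, 41347351 to 41369313, plus strand) from 137 to 149 CPM. Neither passed in any of the 13 comparisons. The intervals were narrow for RBX1, whose averaged log2 fold changes were -0.01 (95% confidence interval -0.14 to 0.11) with sgKeap1-1 and -0.05 (-0.18 to 0.08) with sgKeap1-2. For CUL3 they were 0.03 (-0.18 to 0.24) and 0.07 (-0.14 to 0.28). The highest CUL3 level of all, 89.1 CPM, was that of replicate 1 of sgKeap1-2 under sitfeb/sitfe3, a library that stands apart. Without it the CUL3 mean of that group was 53.9 ± 5.07 CPM (SD, n = 3) in place of 62.7 ± 18.1 CPM (SD, n = 4).

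NFE2L2, which encodes NRF2 itself (GRCh37 chromosome 2, 178083395 to 178257484, minus strand), did not rise with either guide. Under siNC the sgCtrl libraries had 256, 191, 248 and 199 CPM. The sgKeap1-1 libraries had 143, 198, 166 and 205 CPM. In the sgKeap1-2 libraries the level was 178, 188, 175 and 205 CPM. All 4 averages with a KEAP1 guide, 178, 186, 185 and 201 CPM, were below the sgCtrl averages of 223 and 217 CPM, with overlap between libraries in each case. Averaged over both siRNAs, the difference was -0.27 on the log2 scale (SE 0.10, adjusted p 0.0529) with sgKeap1-1 and -0.20 (SE 0.10, adjusted p 0.148) with sgKeap1-2, neither of which passed. The highest library of all, at 282 CPM, was again replicate 1 of sgKeap1-2 under sitfeb/sitfe3, where the other 3 lay between 163 and 184 CPM. Without both libraries that stand apart, NFE2L2 was lower with both guides, at -0.22 (adjusted p 0.0248) and -0.28 (adjusted p 0.00368). The sgKeap1-1 value also passed with DESeq2 (adjusted p 0.0438) and without any 1 of 7 libraries, at adjusted p from 0.0137 to 0.044. These were replicates 2 and 4 of sgCtrl and of sgKeap1-1 under siNC and, under sitfeb/sitfe3, replicate 4 of sgCtrl and replicates 1 and 3 of sgKeap1-2. The sgKeap1-1 value still did not pass in 4 of 9 other settings. It also did not pass in 17 of 24 limma fits that left out 1 library (adjusted p up to 0.112). The sgKeap1-2 value did not pass in 6 of the 9 settings or in 23 of the 24 fits. Among the genes whose log2 CPM was most like that of NFE2L2 over the 24 libraries, out of 7844 compared, were WWC2 and PLAGL2 (Pearson's r 0.809 each), and the libraries that stand apart are among the points.

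NFE2L1 (GRCh37 chromosome 17, 46125691 to 46138907, plus strand) had group means from 72.9 to 85.8 CPM and passed in no comparison. Its averaged log2 fold changes were -0.11 (95% confidence interval -0.29 to 0.08) and -0.01 (-0.19 to 0.17). Of 9 genes tested that process the NRF1 protein, 2 passed with both guides and in opposite directions. DDI2, the protease that cleaves NRF1, was lower (log2 fold changes -0.45 and -0.57, adjusted p 1e-05 and 2.01e-07), and VCP, the ATPase that extracts it from the membrane, was higher (0.22 and 0.26, adjusted p 0.00404 and 0.000734). Over all genes tested, 8.87% were lower and 9.79% higher with both guides.

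BACH1, the repressor that competes at antioxidant response elements, rose most of the 9 genes in both averages (GRCh37 chromosome 21, 30566392 to 31003071, plus strand). Under siNC the sgCtrl libraries had 9.65, 11, 15.8 and 14.4 CPM. The sgKeap1-1 libraries had 17.9, 36.7, 31.2 and 32.1 CPM. In the sgKeap1-2 libraries BACH1 was at 26.8, 24.2, 25.8 and 23 CPM. All 8 libraries with a KEAP1 guide were above all 4 control libraries. BACH1 was 2.27-fold higher with sgKeap1-1 (log2 fold change 1.19, SE 0.22, adjusted p 0.00048) and 1.99-fold higher with sgKeap1-2 (1.00, SE 0.22, adjusted p 0.00262). Without both libraries that stand apart the sgKeap1-1 value was 1.41 on the log2 scale.

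Under sitfeb/sitfe3 the guides gave unlike values for BACH1, but they were not tested against each other under this siRNA alone. The sgCtrl libraries had 11.8, 12.1, 10.2 and 13.6 CPM. The sgKeap1-2 libraries were all higher, at 32.8, 24.6, 27 and 28.7 CPM, which was 2.35-fold (1.23 on the log2 scale, SE 0.22, adjusted p 0.000178). The sgKeap1-1 libraries had 10.2, 20, 15 and 18.6 CPM, of which 3 of 4 were above every control, and the log2 fold change of 0.40 did not pass (95% confidence interval -0.09 to 0.89, adjusted p 0.354). Without all 6 libraries numbered 1 it was 0.59 and passed (adjusted p 0.0415). Averaged over both siRNAs, BACH1 was higher with sgKeap1-1 (0.79, SE 0.16, adjusted p 0.000627) and with sgKeap1-2 (1.11, SE 0.16, adjusted p 3.52e-06). It was the 1 member of 9 that rose with both guides, beside 9.79% of all genes.

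The BACH1 values rest on 37 to 133 counts per library. The row of GRIK1-AS2, which lies within BACH1 on the same strand, had counts identical to those of BACH1 in all 24 libraries. The counts are thus 1 set under 2 gene IDs and do not tell the 2 genes apart. As a description, the NFE2L2 level per BACH1 level in a library went from 18.4 ± 5.64 in sgCtrl under siNC (SD, n = 4) to 6.28 ± 1.23 with sgKeap1-1 and 7.52 ± 1.04 with sgKeap1-2. Under sitfeb/sitfe3 it was 18.5 ± 4.17, 12.4 ± 3.92 and 7.03 ± 1.13.

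The small MAF proteins have no activation domain of their own and serve as partners of NRF2, NRF1 and BACH1. MAFG (GRCh37 chromosome 17, 79876146 to 79885611, minus strand) was at 118, 140, 123 and 152 CPM in sgCtrl libraries under siNC. With sgKeap1-2 it was at 195, 214, 202 and 231 CPM. These groups did not overlap, and MAFG was 1.59-fold higher (log2 fold change 0.67, SE 0.19, adjusted p 0.0144). The call was lost without replicate 1 of sgCtrl under siNC, with a log2 fold change of 0.61 and an adjusted p of 0.0501. With sgKeap1-1 the libraries had 90.7, 204, 148 and 223 CPM, and the lowest, below every control, was the library that stands apart. For sgKeap1-1 the difference was 0.25 on the log2 scale (SE 0.19, adjusted p 0.472) with all libraries and 0.51 (adjusted p 0.0206) without that one. Without replicate 4 of sgKeap1-1 under siNC, the highest, it was 0.08 (adjusted p 0.844), and without replicate 2 it was 0.13 (adjusted p 0.75).

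MAFG also had a library out of line under sitfeb/sitfe3. The sgCtrl libraries had 119, 144, 112 and 113 CPM, the sgKeap1-1 libraries 160, 179, 164 and 155 CPM. The sgKeap1-2 libraries had 119, 177, 195 and 182 CPM, and the first of these again stands apart. All 4 sgKeap1-1 libraries were above every control, but the difference of 0.43 on the log2 scale (SE 0.19, adjusted p 0.161) did not pass, nor did that of 0.45 (SE 0.19, adjusted p 0.0942) for sgKeap1-2. Without replicate 1 of sgKeap1-1 under siNC both passed (adjusted p 0.0361 and 0.0192), and without replicate 1 of sgKeap1-2 under sitfeb/sitfe3 the latter was 0.60 (adjusted p 0.021). Averaged over both siRNAs, MAFG was higher with sgKeap1-2 (0.56, SE 0.13, adjusted p 0.00182), whereas sgKeap1-1 gave 0.34 (SE 0.13, adjusted p 0.0706). Without both libraries that stand apart, the latter was 0.47 and passed (adjusted p 6.15e-05). With edgeR's quasi-likelihood test and DESeq2 on all libraries it passed as well, with adjusted p of 0.0366 and 0.0256.

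The 3′ end of MAFG lies within SIRT7, a coding gene on the same strand, whose own level was 47.2 ± 4.25 CPM in sgCtrl and 59.4 ± 6.24 CPM with sgKeap1-2 under siNC (SD, n = 4), with an averaged log2 fold change of 0.35 (adjusted p 0.0331). How the counting treated reads in the overlap was not given in the sources used here. The genes most like MAFG over the 24 libraries were SH3BP4 (Pearson's r 0.941), GLRX (0.934) and F2RL1 (0.913). After the mean of each group was removed, their r was 0.926, 0.888 and 0.889.

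MAFK (GRCh37 chromosome 7, 1570338 to 1582679, plus strand) showed smaller differences than BACH1. Under sitfeb/sitfe3 it was at 34.5, 57, 34.5 and 54.3 CPM in sgCtrl libraries. It was at 61.6, 64.2, 58.8 and 66.7 CPM with sgKeap1-2, without overlap (0.52 on the log2 scale, SE 0.17, adjusted p 0.0289). Leaving out any 1 of 4 libraries of these groups, replicates 1 and 3 of sgCtrl and replicates 2 and 4 of sgKeap1-2, ended that call, with adjusted p from 0.0574 to 0.135. Under siNC the group means were 47.2, 55.4 and 59.3 CPM for sgCtrl, sgKeap1-1 and sgKeap1-2, and neither guide passed. Averaged over both siRNAs, MAFK was higher with sgKeap1-2, at a log2 difference of 0.43 (SE 0.12, adjusted p 0.0069). For sgKeap1-1 it was 0.30 (SE 0.12, adjusted p 0.0738), which did not pass. Without both libraries that stand apart the latter was 0.35 and passed (adjusted p 0.0291). It also passed without replicate 1 of sgKeap1-1 under siNC (adjusted p 0.0363) or replicate 2 or 4 of sgCtrl under sitfeb/sitfe3 (0.0334 and 0.0381).

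MAFF (GRCh37 chromosome 22, 38596774 to 38612514, plus strand) passed in no comparison, with averaged log2 fold changes of 0.11 (95% confidence interval -0.30 to 0.52) and 0.22 (-0.19 to 0.62). Its libraries spread widely, from 17 to 51.4 CPM in sgCtrl under siNC and from 20.3 to 50 CPM in sgCtrl under sitfeb/sitfe3. Both of these lowest values belonged to replicate 1. Without the lower of them the averages were -0.08 and 0.02, and without all 6 libraries numbered 1 they were -0.14 and -0.08, so the sign of the MAFF values depended on these libraries. The 3 small MAF levels together came to 222 ± 38.9 CPM in sgCtrl under siNC, 264 ± 76.8 CPM with sgKeap1-1 and 317 ± 30.4 CPM with sgKeap1-2 (SD, n = 4). With sgKeap1-1 the library that stands apart was at 168 CPM and the other 3 lay between 235 and 332 CPM. As a description, per unit of NFE2L2 level they came to 1.03 ± 0.31, 1.46 ± 0.21 and 1.70 ± 0.10. Under sitfeb/sitfe3 the sums were 208 ± 32.8, 263 ± 17.5 and 273 ± 32.9 CPM for sgCtrl, sgKeap1-1 and sgKeap1-2. Per unit of NFE2L2 level these were 0.97 ± 0.19, 1.42 ± 0.06 and 1.45 ± 0.45. Replicate 1 of sgKeap1-2 under sitfeb/sitfe3, which stands apart, was at 0.796.

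**Figure D2:**
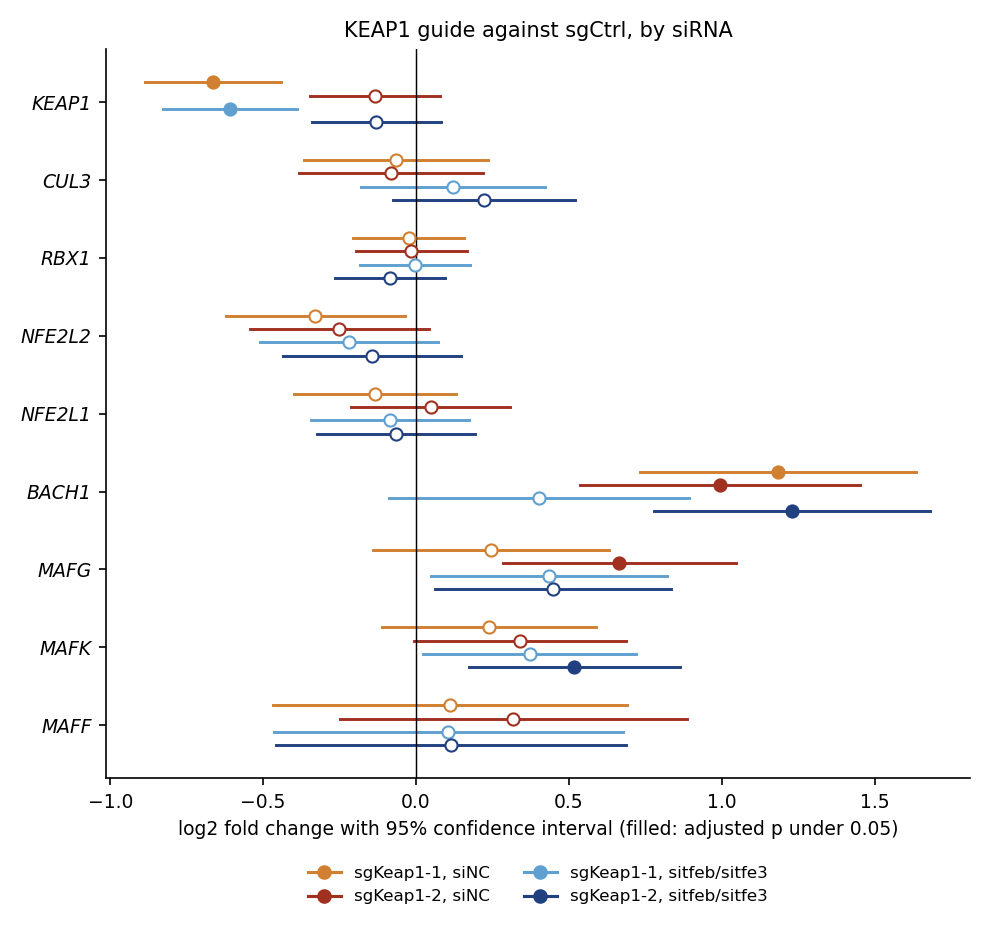
Log2 fold change of each gene with a KEAP1 guide against sgCtrl (x axis), for 2 guides under 2 siRNA treatments, with 95% confidence intervals from limma; filled points passed at an adjusted p under 0.05. KEAP1 passed in both sgKeap1-1 comparisons, BACH1 in 3 of 4 comparisons, and MAFG and MAFK in 1 each.

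Counted over the 9 genes, 2 passed with sgKeap1-1 under siNC (BACH1 higher and KEAP1 lower) where 10.9% of all genes did. With sgKeap1-2 under siNC 2 passed (BACH1 and MAFG, both higher), beside 14.7% of all genes. Under sitfeb/sitfe3 the counts were 1 with sgKeap1-1 (KEAP1, lower), beside 10.5% of all genes, and 2 with sgKeap1-2 (BACH1 and MAFK, both higher), beside 20.2%. In the averages, 2 of 9 passed with sgKeap1-1 (21% of all genes) and 3 of 9 with sgKeap1-2 (29.8%). The median log2 fold change of the 9 genes was 0.03 with sgKeap1-1, where that of all genes was -0.01. Shares so near those of all genes are no result about the 9 as a set, and the calls were those of KEAP1, BACH1, MAFG and MAFK.

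Knockdown of TFEB and TFE3 was compared within each guide to ask whether it moved the switch. None of the 9 genes passed in sgCtrl, sgKeap1-1 or sgKeap1-2 cells or in the average over guides with limma, where 0.0179%, 0.0897%, 0.359% and 2.33% of all genes did. Before adjustment, 0, 1, 0 and 0 members had a p under 0.05. The quasi-likelihood test of edgeR called 0 in each, and DESeq2 called 1, in sgKeap1-1 cells. That gene was BACH1, which went from 29.5 ± 8.08 CPM under siNC to 15.9 ± 4.36 CPM under sitfeb/sitfe3 (SD, n = 4). The difference was -0.85 on the log2 scale (SE 0.21, unadjusted p 0.00036, adjusted p 0.118 with limma and 0.0121 with DESeq2), and the groups overlapped in 1 library, the siNC library that stands apart. Without that library it was -1.07 and passed (adjusted p 0.00499). The limma tests within 1 guide had little reach. In sgCtrl cells TFEB, itself a target of the siRNA, did not pass in limma with all libraries. It also did not pass in 23 of 24 limma fits that left out 1 library, with log2 fold changes from -2.17 to -1.71 over the 24. With edgeR and DESeq2 it passed (adjusted p 0.00923 and 3.75e-05).

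In sgCtrl cells BACH1 changed by -0.07 with the knockdown (95% confidence interval -0.58 to 0.45), and in sgKeap1-2 cells by 0.17 (-0.22 to 0.56). The difference between the knockdown effect in sgKeap1-1 and in sgCtrl cells was -0.78 (SE 0.32, unadjusted p 0.0231, adjusted p 1), and that for sgKeap1-2 was 0.24 (SE 0.31, adjusted p 0.991). Neither passed, and no interaction passed for any member or any of the 11152 genes. Before adjustment, 1 and 0 members had a p under 0.05 for the 2 interactions, and edgeR and DESeq2 called 0 members in each. KEAP1 and NFE2L2 did not pass under knockdown, with averaged log2 fold changes of 0.03 (95% confidence interval -0.10 to 0.15) and 0.03 (-0.14 to 0.20).

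**Figure D3:**
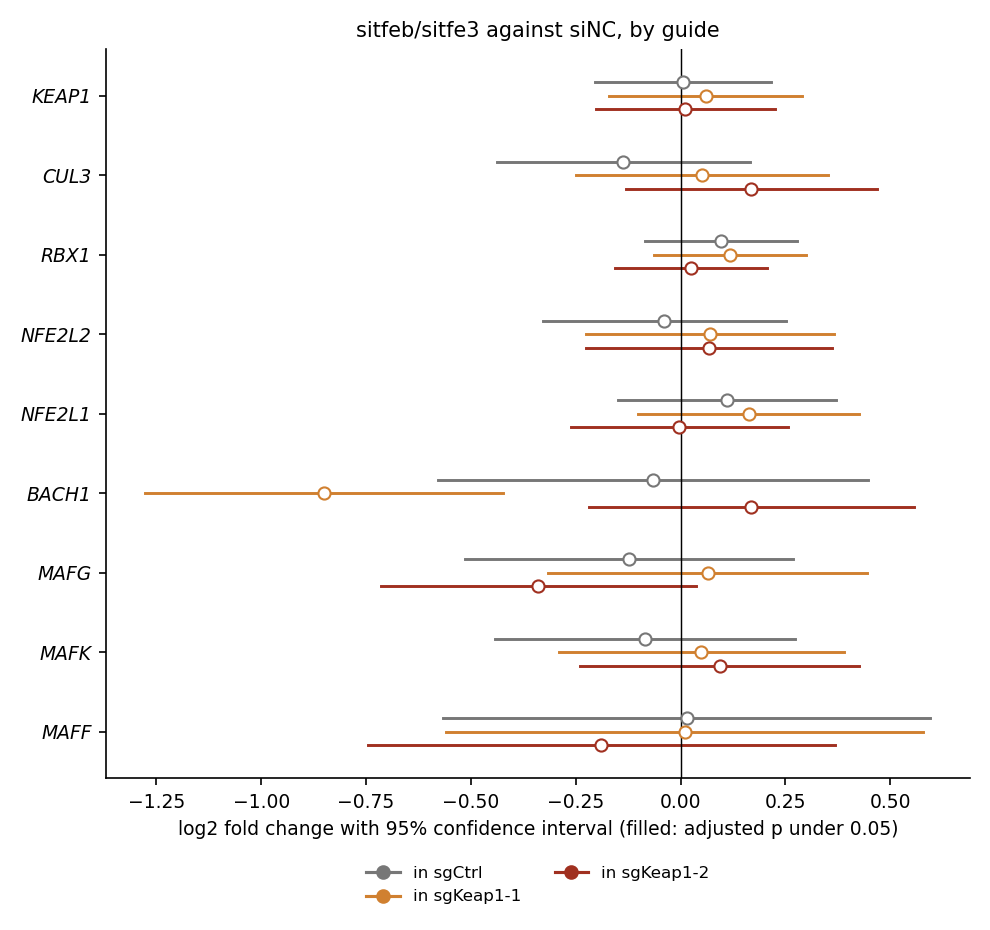
Log2 fold change of each gene with sitfeb/sitfe3 against siNC (x axis) in sgCtrl, sgKeap1-1 and sgKeap1-2 cells, with 95% confidence intervals from limma; open points did not pass at an adjusted p under 0.05. No gene passed, and the interval of BACH1 in sgKeap1-1 cells, around -0.85, lies below 0.

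Genes that surround the switch were then counted by role, in the averages over both siRNAs. Of 10 tested genes for proteins that bind KEAP1 or NRF2 and so compete with the switch, 2 were higher and 2 lower with both guides, beside 9.79% and 8.87% of all genes. SQSTM1, the autophagy receptor p62 that sequesters KEAP1, was higher by 1.12 and 1.43 on the log2 scale (adjusted p 3.89e-08 and 2.86e-10). CDKN1A, the cell cycle inhibitor p21, was higher by 0.65 and 0.56. AMER1, a regulator of WNT signalling, was lower (-0.46 and -0.67), as was MCM3, a subunit of the replicative helicase (-0.41 and -0.65). SQSTM1 was also lower under sitfeb/sitfe3 in the average over guides (-0.61, SE 0.09, adjusted p 0.000331), and it was not tested against the members.

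Genes that turn over NRF2 or drive cullin ligases were read against the same shares of all genes, 9.79% higher and 8.87% lower with both guides. Of 11 genes for routes other than CUL3, 1 passed with both guides, DCAF11, a substrate receptor of CUL4 ligases (-0.37 and -0.38, adjusted p 0.00682 and 0.00342). Of 14 genes of neddylation, the COP9 signalosome and cullin exchange, 0 passed with both guides in limma, and all log2 fold changes lay between -0.28 and 0.16 with sgKeap1-1 and between -0.22 and 0.09 with sgKeap1-2. Among 24 other substrate adaptors of CUL3, 3 were higher with both guides and 1 was lower. The higher ones were KLHL21 (0.36 and 0.42), RHOBTB3 (0.35 and 0.37) and IVNS1ABP (0.33 and 0.53), and the lower one was KBTBD7 (-0.45 and -0.56). Of 3 other CNC or large MAF factors tested, 0 passed with both guides.

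Of 11 coregulators of NRF2, 1 was higher and 1 lower with both guides, which is near the shares of all genes. SMARCA4, the ATPase of a chromatin remodelling complex, was higher by 0.61 and 0.78 (SE 0.06 each, adjusted p 2.42e-08 and 1.55e-10), with all 16 libraries above all 8 controls. RXRA, a nuclear receptor that binds NRF2, was lower (-0.45 and -0.67, adjusted p 0.000807 and 4.17e-06).

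Genes that NRF2 drives served as the readout of the switch, and 8 of 9 tested were higher with both guides, beside 9.79% of all genes. NQO1, a quinone reductase, was at 700 ± 36.1 CPM in sgCtrl under siNC, 1590 ± 64.3 CPM with sgKeap1-1 and 1800 ± 72.9 CPM with sgKeap1-2 (SD, n = 4), without overlap. TXNRD1 was higher by 2.13 and 2.57 on the log2 scale, OSGIN1 by 2.05 and 2.40 and GCLM by 1.84 and 2.12. GCLC, the catalytic partner of GCLM, was higher by 1.26 and 1.57, the cystine transporter SLC7A11 by 1.03 and 1.45 and PIR by 0.84 and 1.13. The exception was HMOX1, which encodes haem oxygenase and is a well-known target of BACH1, at 0.22 (SE 0.14, adjusted p 0.31) and 0.04 (SE 0.14, adjusted p 0.869). SRXN1 was listed but was not found by its symbol among the features, so it was not analysed. The output genes rose with sgKeap1-2, in which KEAP1 RNA did not pass, by a median log2 fold change of 1.45, and with sgKeap1-1, in which it fell, by 1.24. With knockdown 0 of 9 passed in limma in the average over guides, with a median of 0.02.

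**Figure D4:**
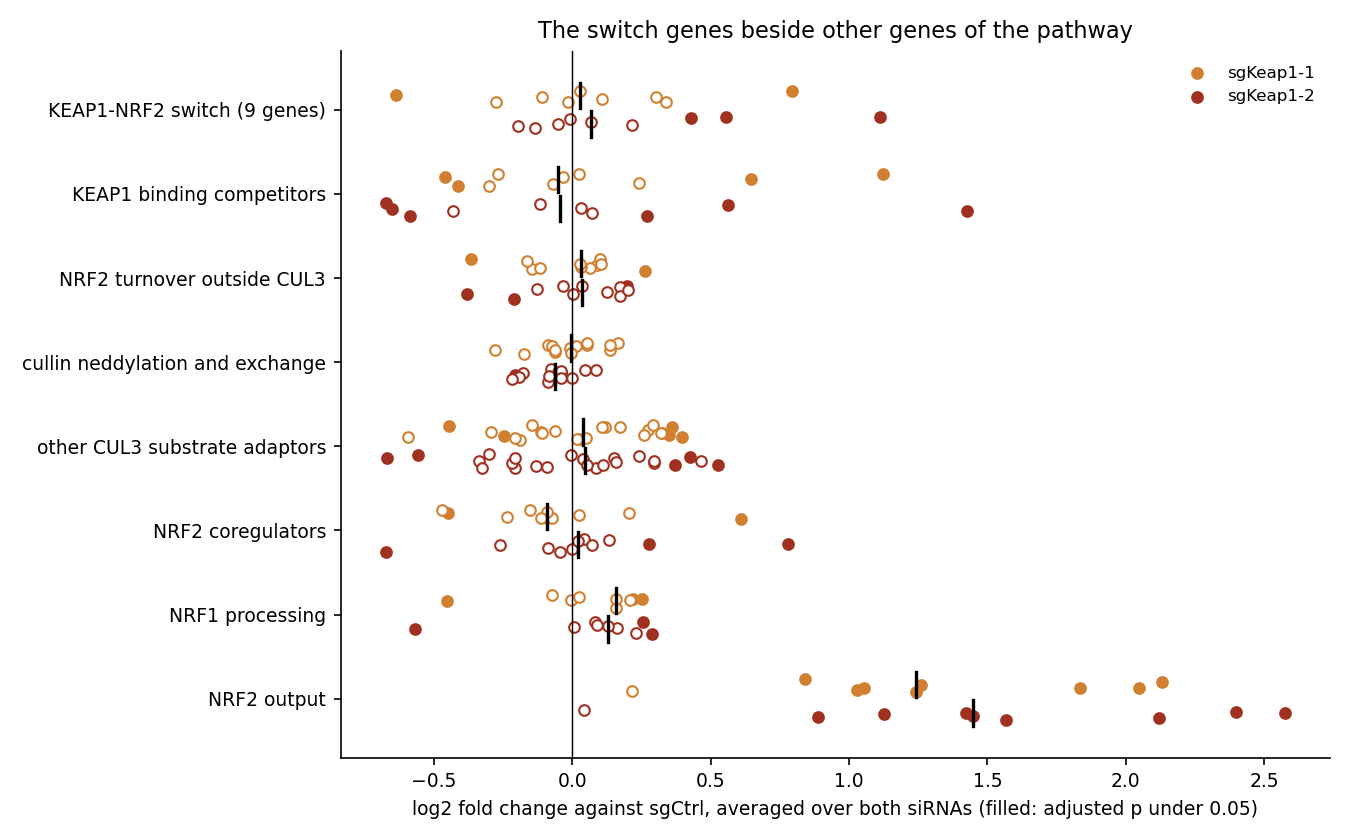
Log2 fold change against sgCtrl, averaged over both siRNAs (x axis), of the 9 genes and of 7 lists of other pathway genes (y axis), for sgKeap1-1 and sgKeap1-2. Each point is a gene, filled at an adjusted p under 0.05, and black lines are medians, which lie near 0 for the 9 genes and at 1.24 and 1.45 for the NRF2 output genes.

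Some members varied with each other across the 24 libraries. Pearson's r of log2 CPM was 0.653 between MAFG and MAFK, 0.63 between MAFF and MAFK, 0.625 between BACH1 and MAFK and 0.586 between BACH1 and MAFG, and after removal of the group means 0.503, 0.684, 0.423 and 0.419. KEAP1 and NFE2L2 had an r of 0.405, and of -0.02 after that removal. The genes most like KEAP1 were PPARA (0.775), ZBTB33 (0.736) and ALDH6A1 (0.729). These libraries share guides, siRNAs and the 2 libraries that stand apart, so the values are given as a description.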

How the data were processed

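RNA of 24 HepG2 libraries was measured by QuantSeq 3′ sequencing. According to the submitters' processing notes, the authors used FastQC 0.72, cutadapt 1.16, STAR 2.7.5b, featureCounts 1.6.3 and limma 3.40.6 with build hg38, whereas the study's methods name hg19, so the build of the counting is uncertain. The table the authors deposited holds raw read counts, without normalization, in 13446 rows with no coordinates. Gene positions are those of GENCODE for GRCh37 and promoters those of RefSeq for GRCh38.p14, and the 2 builds were not mixed. The strand setting of the counting was not given in the sources used here. Rows without a gene ID (1414, holding 1.35% to 2.57% of the reads) were left out, 43 rows that shared an ID were summed, and 160 IDs with identical counts were kept as 78 features.

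Counts were filtered with filterByExpr, scaled with TMM (edgeR 4.0.16) and tested by voom in limma 3.58.1 under R 4.3.3, in 1 fit of 6 group means. The study names limma-voom. The filter, the scaling and the single fit were chosen here. All tests were two-sided, with Benjamini-Hochberg adjustment over 11152 genes and a threshold of 0.05. Averaged contrasts weight both siRNAs, or the 3 guides, equally. CPM used the TMM-scaled library size, and most-alike genes used log2 CPM with a prior count of 2 among genes with a mean of at least 50 counts. The procedure was tested on simulated data. Alternatives were edgeR's quasi-likelihood test, DESeq2 1.42.0, another scaling, no filter, only the groups compared, a replicate block, quality weights, a stricter threshold and libraries left out. Leaving out all 6 libraries numbered 1 was added after seeing the data. The 2 libraries that stand apart do so in these same counts, so leaving them out rests on the data as well.

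All 9 members, both siRNA targets and the NRF2 output genes were always named, as were up to 5 genes of each list that passed with both guides. Of the genes this rule names, 1 NRF2 output gene, which stays in that list's counts and medians, and 1 gene among those most like NFE2L2 are not reported here by name. SIRT7 and GRIK1-AS2 were named for their overlap, after their values were seen. Members and lists were chosen with earlier results of these data known.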

Additional observations from a re-analysis of the deposited data

Results flagged for a closer look

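MAFF in replicate 1 of sgCtrl under siNC, at 17 CPM, lay far below the other 3 libraries of its group, which had 51.4, 47.1 and 50 CPM. It was the 1 of 54 gene and group pairs in which a library stood out in this way, and chance alone gives about 1 in 20.

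The effects of the guides on KEAP1 differed. The averaged log2 fold change was 0.50 higher with sgKeap1-2 than with sgKeap1-1 (SE 0.08, adjusted p 0.00145 in limma), and the 8 libraries of the first lay above the 8 of the second. Both guides target KEAP1, and where each cuts relative to the reads was not examined here.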

How the results depend on the processing

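Over 4718 values of single genes under another setting, none reversed a call, 4625 kept their side of the threshold, 63 newly passed and 30 no longer passed. The number of the 9 members called moved by more than 1.5 times in these cases, whose cause was not tested. At an adjusted p under 0.01, 1 passed with sgKeap1-2 under siNC and 1 under sitfeb/sitfe3. With sgKeap1-1 under sitfeb/sitfe3, 2 passed in a fit of only the groups compared, with quality weights and without both libraries that stand apart, and 3 without all 6 libraries numbered 1. With sgKeap1-2 under sitfeb/sitfe3, 1 passed in a fit of only the groups compared, and 4 with quality weights, without both libraries that stand apart and without the 6 numbered 1. In the average for sgKeap1-1, 4 passed with DESeq2, and 5 with quality weights and without both libraries that stand apart. With knockdown in sgKeap1-1 cells, 1 (BACH1) passed with DESeq2, quality weights and both sets of libraries left out, and with knockdown averaged over guides 1 passed with quality weights.

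Leaving out 1 library at a time gave 2 to 3 and 1 to 2 members for sgKeap1-1 and sgKeap1-2 under siNC, 1 to 2 and 1 to 3 under sitfeb/sitfe3, 2 to 4 and 3 to 4 in the averages, 1 throughout for the comparison of the guides, 0 to 1 for knockdown in sgKeap1-1 cells and 0 throughout for the other knockdown contrasts and the interactions.

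Libraries of different groups share replicate numbers. Of 60 same-numbered pairs, 28 had deviations from their group means that correlated above 0.1 (median r 0.0855, from -0.249 to 0.508), and 13 of 24 libraries correlated best with their own number, a hint from the data. The sample descriptions carry a code that goes with the number in every group, but its meaning is not stated, so it was not taken as a pairing. With a replicate block, 4 members passed in the average for sgKeap1-1, with MAFG (adjusted p 0.0215) and MAFK (0.0193) added, and MAFG passed with sgKeap1-2 under sitfeb/sitfe3 (0.0352). No other call of a member changed with the block.

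Depth limits BACH1 most, with as few as 37 counts in a library. Counting error alone is covered by such counts, since reads carry no molecular identifiers.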
